A study of Mus musculus with 20 samples.

Results

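The breakdown of leucine, isoleucine and valine in mouse colon was followed through 10 genes, chosen by name in the deposited count tables: Bcat2, Bckdha, Bckdhb, Dbt, Ivd, Mccc1, Mccc2, Hibch, Hibadh and Aldh6a1. All 10 were present in both tables, among 56748 genes in the chow table and 31184 in the high fat diet (HFD) table, and all 10 passed the filter on low counts in each comparison. The study asked how loss of Pcca, a subunit of propionyl-CoA carboxylase, affects transcription in the colon. It sequenced poly-A RNA from 20 whole colon pieces in 5 groups of 4 libraries.

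On standard chow the groups were Pcca ff, the floxed littermate controls; Pcca Vill, in which Villin-Cre removes Pcca from the intestinal epithelium; and Pcca Alb, in which Albumin-Cre removes it from the liver. These mice were killed at 9 weeks of age, and the labels do not give their sex. On HFD the groups were Pcca ff and Pcca Vill. These were males that ate a diet with 60% of its energy as fat for 12 weeks from the age of 6 weeks and were killed at 18 weeks. All mice were fasted for 4 hours. Muscle and connective tissue, in which Villin-Cre is not active, were extracted together with the epithelium. The labels do not state that each library is a separate animal, so p-values measure the spread between these libraries.

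The branched-chain amino acids are first transaminated to keto acids, in most tissues by the mitochondrial enzyme encoded by Bcat2. The branched-chain keto acid dehydrogenase complex then oxidises the keto acids irreversibly. Bckdha and Bckdhb encode its decarboxylase subunits and Dbt its acyltransferase core, and the complex is switched off by the kinase Bckdk and on by the phosphatase Ppm1k. Separate arms follow for each amino acid. Ivd and the biotin-dependent carboxylase made of Mccc1 and Mccc2 serve leucine, Hibch and Hibadh serve valine, and Aldh6a1 makes propionyl-CoA at the end of the valine arm. Propionyl-CoA from valine and isoleucine is the substrate of the carboxylase made of Pcca and Pccb.

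Promoter sequences are shown for 3 members on which the results below turn. Mccc1 and Mccc2 encode the subunits of 1 enzyme and varied together, as most members did, whereas Bcat2 did not share this pattern. The windows run from 250 bases before to 50 bases after a transcription start, come from RefSeq on GRCm38.p6, and are written 5′ to 3′ along the gene. Capitals mark matches to the searched motifs. In Mccc1 (chr3:36000629-36000928, minus strand) they are 3 CCAAT boxes (CCAAT, or ATTGG on the other strand) and 1 GC box (GGGCGG or its reverse complement). In Mccc2 (chr13:100015590-100015889, minus strand) they are 3 CCAAT boxes, of which 2 overlap on opposite strands, and 1 E-box (CACGTG). The Bcat2 window (chr7:45569903-45570202, plus strand) held no match.
Mccc1: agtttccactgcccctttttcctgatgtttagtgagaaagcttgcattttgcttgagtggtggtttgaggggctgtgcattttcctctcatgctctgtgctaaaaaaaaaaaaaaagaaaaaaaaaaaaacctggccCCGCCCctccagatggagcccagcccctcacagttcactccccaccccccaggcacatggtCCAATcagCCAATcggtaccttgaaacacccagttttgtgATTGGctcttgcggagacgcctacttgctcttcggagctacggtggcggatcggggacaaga
Mccc2: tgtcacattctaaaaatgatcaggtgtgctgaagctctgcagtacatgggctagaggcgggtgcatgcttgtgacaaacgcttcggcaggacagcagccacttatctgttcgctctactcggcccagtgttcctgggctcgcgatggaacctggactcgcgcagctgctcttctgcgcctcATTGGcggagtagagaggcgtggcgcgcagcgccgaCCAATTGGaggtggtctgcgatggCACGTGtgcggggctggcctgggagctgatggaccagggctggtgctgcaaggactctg
Bcat2: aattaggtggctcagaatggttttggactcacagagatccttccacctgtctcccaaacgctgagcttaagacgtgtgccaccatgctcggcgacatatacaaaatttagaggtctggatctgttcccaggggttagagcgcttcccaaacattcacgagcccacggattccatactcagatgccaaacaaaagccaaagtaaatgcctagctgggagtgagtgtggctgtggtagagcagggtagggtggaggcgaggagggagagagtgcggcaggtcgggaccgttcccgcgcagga

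The RefSeq table held 12 start windows for 9 of the 10 members. Dbt is not among them. A CCAAT box was found in 8 of the 12 windows and in 37.4% of all 32851 windows of that length. The 8 belong to 6 of the 9 members (Mccc1, Mccc2, Ivd, Bckdhb, Hibadh and Aldh6a1). A GC box was found in 4 of the 12 windows, against 35.7% of all windows. The 4 belong to Mccc1, Bckdhb, Hibadh and Hibch. The E-box of Mccc2 was the 1 match of its kind (7.15% of all windows). The ETS core (CCGGAAG), the NRF1 site, the TATA box (TATAAA) and a DR1 repeat (2 copies of AGGTCA with 1 base between them) matched in none of the 9 members, against 8.86%, 0.971%, 13.6% and 0.0396% of all windows. Each motif was searched on both strands. Neither start window of Bcat2 matched any of the 7 motifs, nor did that of Bckdha. A match is a run of letters and was not tested as a binding site.

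Counted reads ranged from 27857056 to 40385785 in chow and from 16881567 to 24423757 in HFD libraries. All 12 chow libraries carried Xist (22486 to 59322 reads) and no Ddx3y read, whereas the 8 HFD libraries carried 0 to 12 Xist reads and 1458 to 2756 Ddx3y reads, so diet, age and sex differ together between the tables. Epithelial markers were present in every group (10 of 10 genes, summed level 10300 to 19700 CPM, read counts divided by library size and scaled between libraries). In 5 libraries a list of 12 small intestine genes was high: its summed level was 1399 CPM in chow ff 2, 1180 CPM in chow Vill 1, 1113 CPM in chow Alb 3, 1228 CPM in HFD ff 1 and 1884 CPM in HFD ff 3. The other 15 libraries lay between 85.4 and 696.7 CPM. Results are therefore also given without these 5 libraries where they rest on them. In chow Alb 2, squamous markers summed to 85.7 CPM, against 1.1 to 5.46 CPM elsewhere.

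The targeted gene, Pcca, was at 54.5, 39.8, 57.8 and 41.2 CPM in the 4 chow ff libraries and at 27.9, 33.9, 29.4 and 29.8 CPM in chow Vill. These groups did not overlap. On HFD, Pcca was at 28.9, 53.5, 31.2 and 59.5 CPM in ff and at 33.4, 37.3, 32.6 and 33.7 CPM in Vill, so that ff 1 and ff 3 lay below every Vill library. The chow difference was -0.67 on the log2 scale (edgeR quasi-likelihood test, Benjamini-Hochberg adjusted p = 1). Averaged over both diets it was -0.51 (edgeR adjusted p = 0.962). It was -0.69 without HFD ff 1 and 3, but these are the HFD ff libraries lowest in Pcca, so leaving them out enlarges the decrease by construction and the edgeR adjusted p of 0.022 there is not a test of it. Under every other alternative run of this average the adjusted p lay between 0.483 and 0.999 (edgeR, DESeq2 or limma-voom). In chow alone, DESeq2 gave a difference of -0.68 with an adjusted p of 0.234.

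**Figure D1:**
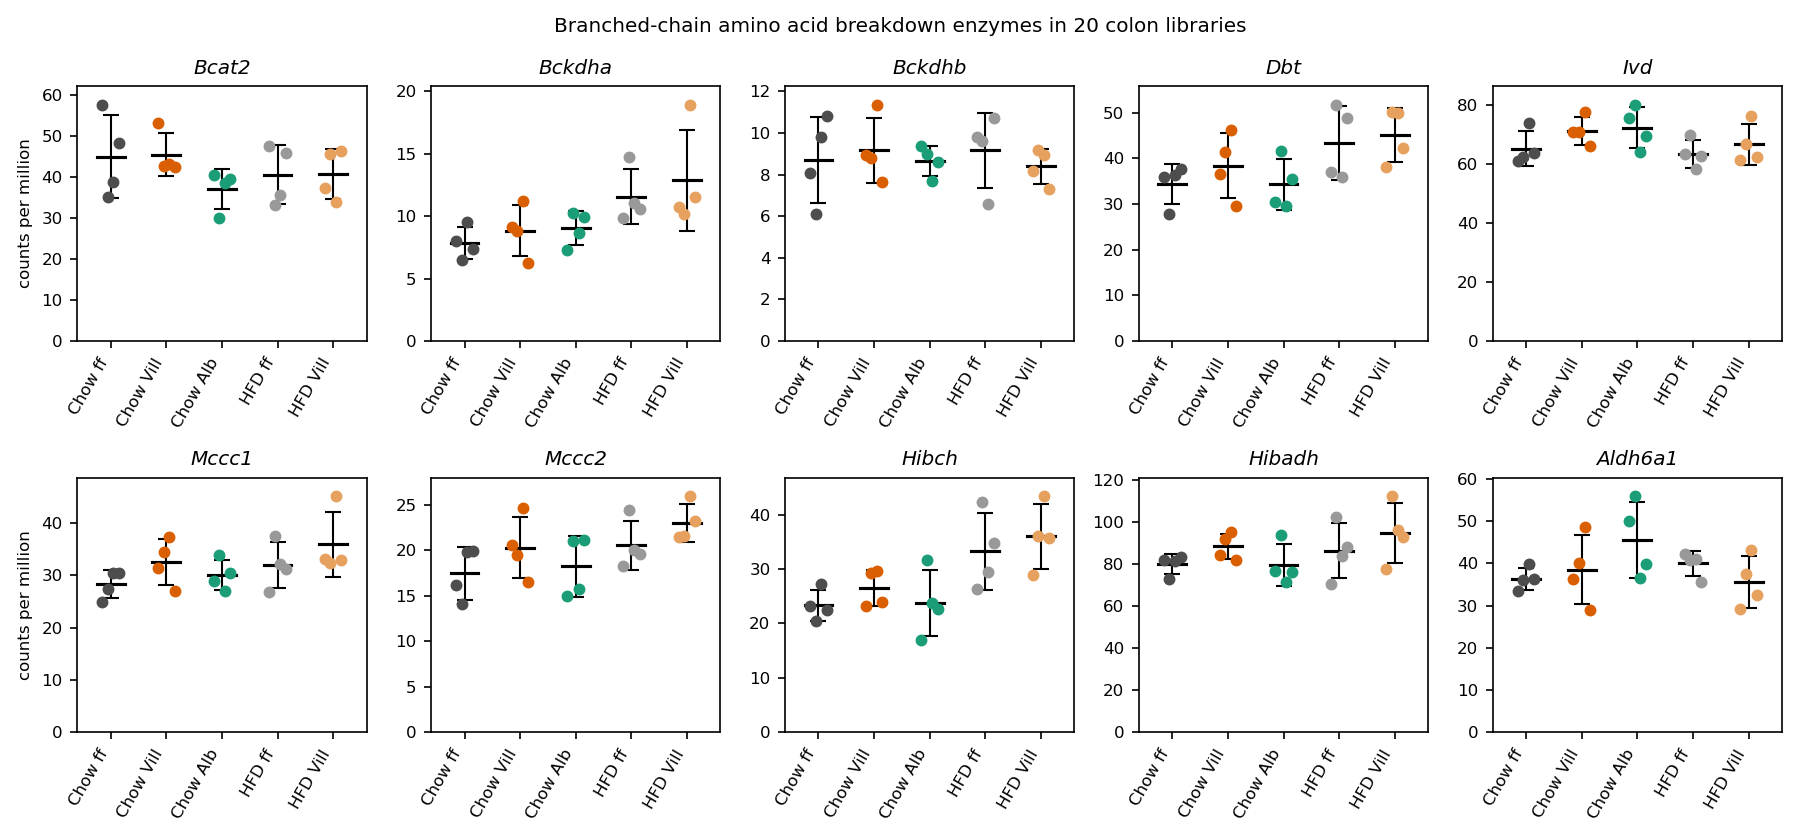
Level of each of the 10 enzymes in each of the 20 libraries (vertical axis: CPM on 1 scale for all libraries; horizontal axis: the 5 groups of 4 libraries). Points are libraries, horizontal bars are means and whiskers are SD; neighbouring groups in the order of means overlap for every gene.

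Bcat2 (ENSMUSG00000030826, mm39 chr7:45219577-45239135, plus strand), the transaminase, was at 57.6, 35.2, 38.7 and 48.2 CPM in chow ff and at 53.2, 42.8, 43.1 and 42.4 CPM in chow Vill. In chow Alb it was at 40.5, 29.9, 38.4 and 39.5 CPM. The chow Alb libraries all lay below the chow Vill libraries, while ff overlapped both. On HFD, Bcat2 was at 47.6, 33.1, 35.6 and 45.9 CPM in ff and at 37.3, 45.5, 33.9 and 46.4 CPM in Vill. The second transaminase gene, Bcat1, encodes the cytosolic enzyme. Its mean level was 0.762 ± 0.0968 CPM (SD, n = 4) in chow ff and 0.319 ± 0.195 CPM (SD, n = 4) in HFD ff, and it did not pass the filter on HFD. Bcat2 shares bases with a long noncoding RNA gene on the other strand, 0610005C13Rik. Over the chow libraries that gene received 10175 reads beside 16987 for Bcat2. Whether the libraries keep the strand is not given in the sources used here, so the Bcat2 level is uncertain by reads of that gene.

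In the dehydrogenase complex, the genes of the decarboxylase subunits had the fewest reads of the members, counted without regard to gene length. Bckdha (ENSMUSG00000060376, mm39 chr7:25329371-25358406, minus strand) was at 7.97, 6.52, 9.54 and 7.40 CPM in chow ff, at 9.10, 8.80, 11.2 and 6.25 CPM in chow Vill and at 7.28, 10.3, 8.62 and 9.91 CPM in chow Alb. On HFD it was at 9.86, 14.7, 11.1 and 10.6 CPM in ff and at 10.8, 10.2, 18.9 and 11.5 CPM in Vill. All chow groups overlapped one another, and the highest Bckdha value of the series was in HFD Vill 3. Bckdha also overlaps B3gnt8 on the other strand (1448 reads over the chow libraries beside 3489).

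Bckdhb (ENSMUSG00000032263, mm39 chr9:83807198-84006293, plus strand) was at 8.06, 6.11, 9.81 and 10.8 CPM in chow ff, at 8.93, 8.78, 11.4 and 7.64 CPM in chow Vill and at 9.38, 8.96, 7.67 and 8.60 CPM in chow Alb. Its HFD values were 9.82, 9.60, 6.57 and 10.7 CPM in ff and 8.19, 9.16, 8.94 and 7.31 CPM in Vill. No group of Bckdhb stood apart, and its 5 group means lay within 1.09-fold of each other.

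Dbt (ENSMUSG00000000340, mm39 chr3:116306719-116343630, plus strand) was at 36.0, 27.9, 36.3 and 37.6 CPM in chow ff, at 36.6, 41.4, 46.3 and 29.5 CPM in chow Vill and at 30.5, 41.6, 29.6 and 35.6 CPM in chow Alb. On HFD it was at 37.0, 51.8, 35.9 and 49.0 CPM in ff and at 38.2, 50.24, 50.03 and 42.3 CPM in Vill. The 3 chow groups overlapped, and so did the HFD groups. The lowest Dbt value was in chow ff 2, the library with the highest level of small intestine genes on chow.

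In the leucine arm, Ivd (ENSMUSG00000027332, mm39 chr2:118692435-118713390, plus strand), isovaleryl-CoA dehydrogenase, had a coefficient of variation within groups of 6.69 to 10.4%, whose upper end was the lowest of the 10. It was at 60.9, 62.2, 73.8 and 63.6 CPM in chow ff, at 70.6, 70.6, 77.6 and 66.0 CPM in chow Vill and at 75.4, 79.9, 64.1 and 69.5 CPM in chow Alb. Ivd was at 63.1, 69.6, 58.2 and 62.8 CPM in HFD ff and at 61.1, 66.7, 76.3 and 62.2 CPM in HFD Vill. Its groups overlapped throughout.

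Mccc1 (ENSMUSG00000027709, mm39 chr3:36013461-36054827, minus strand), the biotin-carrying subunit, was at 24.8, 27.4, 30.4 and 30.4 CPM in chow ff and at 31.4, 34.4, 37.3 and 27.1 CPM in chow Vill. In chow Alb it was at 28.9, 33.8, 26.9 and 30.5 CPM. On HFD it was at 26.7, 37.5, 32.2 and 31.1 CPM in ff and at 33.15, 32.25, 45.0 and 32.9 CPM in Vill. In chow, 3 of the 4 Vill libraries lay above every ff library, and Vill 4 lay among them.

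Mccc2 (ENSMUSG00000021646, mm39 chr13:100085038-100152147, minus strand), its partner subunit, was at 16.1, 14.1, 19.9 and 19.9 CPM in chow ff, at 20.6, 19.5, 24.6 and 16.5 CPM in chow Vill and at 15.0, 21.1, 15.8 and 21.2 CPM in chow Alb. HFD values were 18.2, 24.4, 20.0 and 19.6 CPM in ff and 21.4, 21.6, 25.9 and 23.2 CPM in Vill. Groups overlapped here too. The log2 ratio of Mccc1 to Mccc2 in CPM was 0.70 ± 0.17 (SD, n = 4) in chow ff, 0.69 ± 0.10 in chow Vill, 0.73 ± 0.18 in chow Alb, 0.63 ± 0.06 in HFD ff and 0.63 ± 0.12 in HFD Vill. The ranges of this ratio overlapped between all groups.

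In the valine arm, Hibch (ENSMUSG00000041426, mm39 chr1:52884088-52960145, plus strand), the hydrolase that frees 3-hydroxyisobutyrate, was at 23.2, 20.4, 27.2 and 22.5 CPM in chow ff, at 23.2, 29.2, 29.6 and 23.97 CPM in chow Vill and at 16.9, 31.6, 23.7 and 22.7 CPM in chow Alb. On HFD it was at 26.3, 42.4, 29.5 and 34.8 CPM in ff and at 28.8, 36.1, 43.3 and 35.7 CPM in Vill. Chow Alb held both the lowest and the highest chow value of Hibch.

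Hibadh (ENSMUSG00000029776, mm39 chr6:52523213-52617374, minus strand), the next dehydrogenase, had the most reads of the 10. It was at 82.1, 73.0, 81.8 and 83.4 CPM in chow ff, at 84.6, 91.9, 95.3 and 82.3 CPM in chow Vill and at 77.1, 94.0, 71.4 and 76.5 CPM in chow Alb. Hibadh was at 70.8, 102.8, 83.9 and 88.4 CPM in HFD ff and at 78.0, 112.4, 96.4 and 93.1 CPM in HFD Vill. In chow, 3 of the 4 Vill libraries lay above every ff library, and Vill 4 lay inside their range.

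Aldh6a1 (ENSMUSG00000021238, mm39 chr12:84477491-84497778, minus strand), methylmalonate semialdehyde dehydrogenase, was at 33.4, 36.0, 39.8 and 36.3 CPM in chow ff, at 36.4, 40.2, 48.7 and 28.9 CPM in chow Vill and at 49.9, 55.9, 36.5 and 39.8 CPM in chow Alb. On HFD it was at 42.3, 40.9, 41.1 and 35.7 CPM in ff and at 29.2, 37.4, 43.3 and 32.6 CPM in Vill. The highest values were in chow Alb 1 and 2, and the other chow Alb libraries lay near or inside the ff range. Aldh6a1 overlaps Bbof1 on the other strand (573 reads over the chow libraries beside 16301).

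Between genes, levels were compared per length, as TPM (reads per base of gene, scaled to a fixed sum in each library) from the counts and the gene lengths of the tables. In chow ff the highest members were Ivd at 35.9 ± 5.33 TPM (SD, n = 4), Bcat2 at 34.7 ± 6.92 TPM and Dbt at 31.2 ± 5.02 TPM. The lowest was Mccc1 at 7.82 ± 1.17 TPM, below its partner Mccc2 at 19.0 ± 4.08 TPM, although Mccc1 had more reads. The tables give Mccc1 a length of 10952 bases and Mccc2 2802 bases. Bckdha at 12.6 ± 2.66 TPM and Bckdhb at 14.7 ± 4.10 TPM lay below Dbt, but above Mccc1 and above Hibch at 11.7 ± 2.02 TPM. Hibadh had 23.1% of the members' summed CPM in chow ff and 11.3% of their sum per length.

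By group mean in CPM, HFD Vill was highest for 6 members (Bckdha, Dbt, Mccc1, Mccc2, Hibch and Hibadh), chow Vill for Bcat2 and Bckdhb, and chow Alb for Ivd and Aldh6a1. In all 40 pairs of neighbours in these orders the libraries overlapped. HFD ff over chow ff was 1.47-fold for Bckdha, 1.42-fold for Hibch, 1.26-fold for Dbt and 0.904-fold for Bcat2. These values are set side by side without a test, because diet, age and sex cannot be told apart. The log2 ratio of the kinase Bckdk to Bckdha was 2.47 ± 0.31 (SD, n = 4) in chow ff and 1.79 ± 0.18 in HFD ff.

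Chow Vill was first set against chow ff, to ask whether loss of Pcca in the gut epithelium goes with a different level of the 10 genes. No member was called by the edgeR quasi-likelihood test at a Benjamini-Hochberg adjusted p under 0.05 (0.00508% of 19701 tested genes were called), and none had an unadjusted p under 0.05 (1.9% of tested genes did). DESeq2 and limma-voom also called 0 members, here and in each comparison below. The mean of chow Vill was above that of chow ff for 10 of 10 members, as for 50.8% of tested genes. The median log2 difference of the members was 0.153, against 0.00342 for all genes. The members share libraries and vary together, so they are not 10 separate observations. For no member were the groups free of overlap (1.35% of tested genes were).

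The leucine carboxylase genes had the largest differences: Mccc2 at 0.22 (95% interval -0.16 to 0.59) and Mccc1 at 0.21 (-0.05 to 0.47) on the log2 scale. Hibch, Bckdha, Dbt, Hibadh and Ivd lay between 0.13 and 0.18, and Aldh6a1, Bckdhb and Bcat2 between 0.02 and 0.09. This order rested on single libraries: without chow Vill 3, Mccc2 was at 0.11 and Mccc1 and Hibch at 0.13, and without chow Vill 4, Bckdha was highest at 0.29. Every member's edgeR adjusted p was 1. The 95% intervals of all 10 lay within 0.792-fold and 1.52-fold.

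The level of smooth muscle markers differed between the libraries. Summed smooth muscle markers (8 of 8 genes) ranged from 988 to 6590 CPM in chow Vill and from 3960 to 8160 CPM in chow ff. With the smooth muscle level as a covariate, a fit added after seeing the data, the members' median was 0.03, and Bckdha (-0.05), Bckdhb (-0.10), Dbt (-0.04) and Aldh6a1 (-0.11) were negative. Other covariates left the median near its value, at 0.14 with the epithelial level, 0.16 with distal Hox and 0.13 with depth. Without chow ff 2, Vill 1 and Alb 3 the median was 0.10, with Bcat2 at -0.18 and Bckdhb at -0.05. In bulk tissue, fewer cells of a type and less RNA per cell cannot be told apart.

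Chow Alb was compared with chow ff to see the colon of mice that lack Pcca in the liver. Both comparisons use the same ff libraries. No member was called (0% of 19701 tested genes were called by edgeR) or had an unadjusted p under 0.05 (4.4% of tested genes did). Of the 10, 6 had a higher mean in Alb (50.1% of tested genes) and the median log2 difference was 0.0449. That median ran from -0.02 without chow ff 2 to 0.13 without chow ff 4, and was 0.16 with the depth covariate and -0.01 with the epithelial one. Aldh6a1 was at 0.33 (95% interval -0.04 to 0.69, edgeR adjusted p = 0.99) and Bcat2 at -0.28 (-0.62 to 0.07, edgeR adjusted p = 0.99), or -0.12 without chow ff 1. The Aldh6a1 value ran from 0.22 without chow Alb 2 to 0.42 without chow Alb 3. Dbt, Bckdhb and Hibadh were each at -0.01. The groups of every member overlapped (2.82% of tested genes did not overlap), and the intervals lay within 0.649-fold and 1.61-fold.

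Chow Vill was also set against chow Alb, which differ in the Cre line as well as in the organ that lacks Pcca. Again no member was called (0.00508% of 19701 tested genes by edgeR), and none had an unadjusted p under 0.05 (8.87% of tested genes did). The mean was higher in Vill for 7 of 10 (52.8% of tested genes), with a median log2 difference of 0.134. For 1 member, Bcat2, every Vill library lay above every Alb library (2.59% of tested genes did so). Its difference was 0.29 (95% interval -0.06 to 0.64, edgeR adjusted p = 0.625). Leaving out 1 library at a time, it ran from 0.18 without chow Alb 2 to 0.34 without chow Alb 1. With the smooth muscle level as a covariate the members' median was -0.12 while Bcat2 was at 0.33. Smooth muscle markers summed to 4300 to 11300 CPM in chow Alb.

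On HFD, Vill was compared with ff in the 8 libraries of the other table. No member was called (0.00564% of 17715 tested genes by edgeR), and none had an unadjusted p under 0.05 (3.45% of tested genes did). The mean of Vill was higher for 7 of 10 (49.3% of tested genes), with a median log2 difference of 0.0776, against -0.00382 for all genes. Mccc1 and Mccc2 were each at 0.15, with edgeR adjusted p = 0.932. Aldh6a1 (-0.18), Bckdhb (-0.14) and Bcat2 (-0.01) were lower. Every member's groups overlapped (2.13% of tested genes did not overlap), and the intervals lay within 0.678-fold and 1.59-fold. Leaving out HFD ff 1 and 3 gave a median of 0.01, and the distal Hox level as a covariate gave -0.06.

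**Figure D2:**
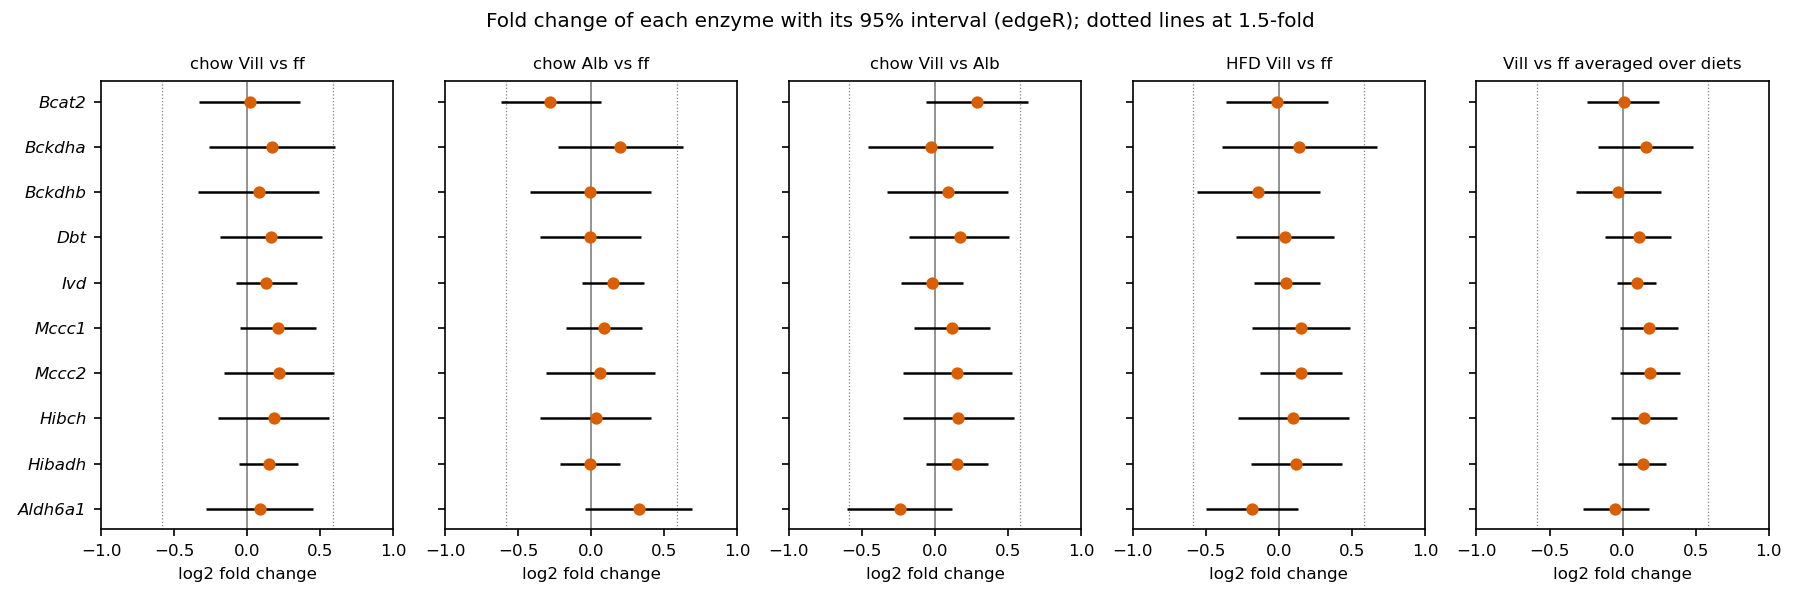
Log2 fold change of each enzyme (points) with its 95% interval (lines) from edgeR in 4 group comparisons and for Vill against ff averaged over diets. Dotted lines mark 1.5-fold; every interval includes 0.

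The difference between the HFD and chow effects of Vill was tested as an interaction in the 16 ff and Vill libraries. No member was called (0% of 19516 tested genes by edgeR), and none had an unadjusted p under 0.05 (2.54% of tested genes did). The signed HFD effect was below the chow effect for 10 of 10 members (51.9% of tested genes), with a median difference of -0.0675 on the log2 scale. The widest was Aldh6a1 at -0.27 (95% interval -0.71 to 0.18, edgeR adjusted p = 1). Averaged over diets, 8 of 10 members had a higher mean in Vill (50.4% of tested genes), with a median of 0.121 and intervals within 0.803-fold and 1.40-fold. Mccc2 was at 0.19 (-0.02 to 0.39, edgeR adjusted p = 0.962) and Mccc1 at 0.18 (-0.02 to 0.38, edgeR adjusted p = 0.962). No member was called there either (0.00512% of 19516 tested genes), nor had any an unadjusted p under 0.05 (3.6% of tested genes did).

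**Figure D3:**
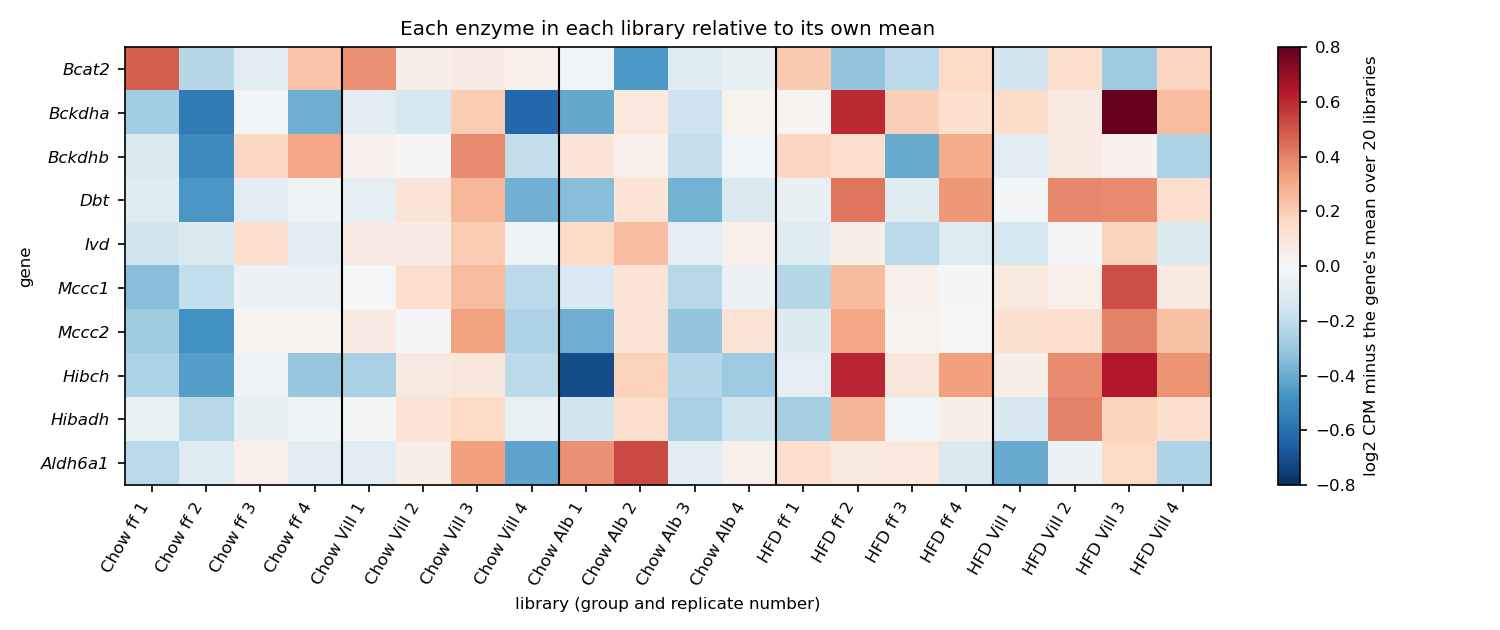
Heat map of the 10 enzymes (rows) in the 20 libraries (columns, black lines between groups): colour is log2 CPM minus the gene's mean over all libraries, from blue (lower) to red (higher). Columns such as chow ff 2 and HFD ff 2 have 1 colour in most rows, while in HFD ff 2 and HFD Vill 3 Bcat2 has the opposite colour.

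Within groups the enzymes varied together from library to library. After subtracting group means from log2 CPM, 38 of the 45 pairs of members were positively correlated over the 12 chow libraries, with a median r of 0.62. Over the 8 HFD libraries 37 of 45 were positive, with a median r of 0.49. The closest pairs were not partners in 1 enzyme: Dbt with Hibadh on chow (r = 0.89) and Bckdha with Mccc1 on HFD (r = 0.96). Pairs of all 11937 genes of similar or higher level (at least 5 CPM on chow) had a median r of 0 on chow and 0.03 on HFD. Of these pairs, 12.3% on chow and 13.1% on HFD had r of 0.6 or higher. Bcat2 did not share this pattern: its median r with the other 9 members was -0.19 on chow and -0.41 on HFD, which was not tested. Without the 5 libraries high in small intestine genes the members' medians were 0.64 and 0.53, and those of Bcat2 -0.46 and -0.43.

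Subunits of 1 enzyme, with the pairs Hibch and Hibadh and Mccc1 and Pccb, were examined in 12 relations with exact permutation within groups and two-sided p-values adjusted over the 12. Mccc1 and Mccc2 had r = 0.80 on chow (rho 0.83, exact permutation p = 0.00745 and p = 0.00622, adjusted p = 0.0179) and r = 0.92 on HFD (rho 0.79, exact permutation p = 0.00694 and p = 0.0451, adjusted p = 0.0179). Leaving out the 2 libraries farthest from the median gave 0.71 and 0.67. Here and below, such values keep the group means of all libraries, so they are not purely within groups. The median r of Mccc1 with the other members was 0.73 on chow and 0.56 on HFD. On chow, Bckdha and Dbt had r = 0.85 (rho 0.70, exact permutation p = 0.00463 and p = 0.0294, adjusted p = 0.0179, 0.72 without the 2 farthest). Bckdhb and Dbt had r = 0.73 on chow (rho 0.73, exact permutation p = 0.00666 and p = 0.0116, adjusted p = 0.0179, 0.68 without the 2 farthest).

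On HFD the dehydrogenase pairs did not pass: Bckdha with Dbt had r = 0.50 and adjusted p = 0.288, and Bckdhb with Dbt r = 0.64 and adjusted p = 0.135, both by exact permutation. Bckdha with Bckdhb passed on neither diet (r = 0.58, adjusted p = 0.112 on chow; r = 0.10, adjusted p = 0.852 on HFD, exact permutation). Hibch and Hibadh of the valine arm had r = 0.81 on HFD (rho 0.90, exact permutation p = 0.0226 and p = 0.0208, adjusted p = 0.0452, 0.62 without the 2 farthest). Their chow value was r = 0.71 with an exact permutation adjusted p of 0.0953. Whether these correlations differ between diets was not tested.

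The members' levels were also set against tissue and depth measures, separately on each diet. On chow, r with the smooth muscle level was -0.6 or lower for 8 of 10 members, against 24.8% of 11927 other genes. It was -0.89 for Dbt (rho -0.89, exact permutation p = 0.000434 and p = 0.000579, adjusted over 88 relations p = 0.0111, -0.88 without the 2 farthest libraries). Mccc2 had r = -0.87 (rho -0.92, exact permutation p = 0.00116 and p = 0.00203, adjusted p = 0.0128, -0.89 without the 2 farthest). Bcat2 had r = 0.10. Epithelial markers ran the same way, with r of -0.6 or lower for 8 of 10 members and 27.1% of other genes. Reads counted ran the opposite way, with r of 0.6 or higher for 7 of 10 members and 16.6% of other genes. Distal Hox reached 0.6 or higher for 1 of 10 (17.8% of other genes). On HFD, smooth muscle was at -0.6 or lower for 2 of 10 members (15.1% of other genes). Reads counted were at 0.6 or higher for 0 of 10 (20.4% of other genes). The HFD smooth muscle values depended on the libraries used. For the mean of the 10 members r was -0.46. It was -0.75 without the 2 farthest libraries, with group means still taken over all libraries. It was -0.31 without HFD ff 1 and 3, with group means taken anew, so these 2 values are not alike. Without the 2 farthest, Mccc2 was at -0.86 but Bcat2 at 0.65 and Aldh6a1 at 0.02.

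These chow measures also ran with each other: epithelial and smooth muscle levels had r = 0.87 (rho 0.91, exact permutation p = 0.000506 and p = 0.000579, adjusted p = 0.00607, 0.85 without the 2 farthest), and epithelial level and depth r = -0.83 (rho -0.86, exact permutation p = 0.00347 and p = 0.00369, adjusted p = 0.0208, -0.88 without the 2 farthest). Their separate parts in the enzymes' levels were not tested. Without chow ff 2, Vill 1 and Alb 3, r with smooth muscle was still -0.6 or lower for 8 of 10 members.

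On HFD the distal Hox genes, which mark position along the gut, had r of 0.6 or higher with 7 of 10 members, against 16.5% of other genes. Hibch had r = 0.89 (rho 0.90, exact permutation p = 0.0174 and p = 0.0208, adjusted p = 0.0666, 0.64 without the 2 farthest libraries). For Bckdha r = 0.81 became -0.13 and for Mccc2 r = 0.82 became 0.06 without the 2 farthest, so these relations rested on those libraries. No HFD relation with distal Hox passed the adjustment. Without HFD ff 1 and 3, r was 0.6 or higher for 7 of 10 members, not the same ones: Hibadh was at 0.40 and Aldh6a1 at 0.88. With epithelial markers, HFD r was -0.6 or lower for 5 of 10 members, against 10.7% of other genes. It was so for 7 of 10 without HFD ff 1 and 3. Of the HFD relations with epithelial markers, Ivd had r = -0.91 (rho -0.83, exact permutation p = 0.00868 and p = 0.0295, adjusted p = 0.0477, -0.62 without the 2 farthest) and Aldh6a1 r = -0.88 (rho -0.86, exact permutation p = 0.00694 and p = 0.0295, adjusted p = 0.047, -0.85 without the 2 farthest).

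**Figure D4:**
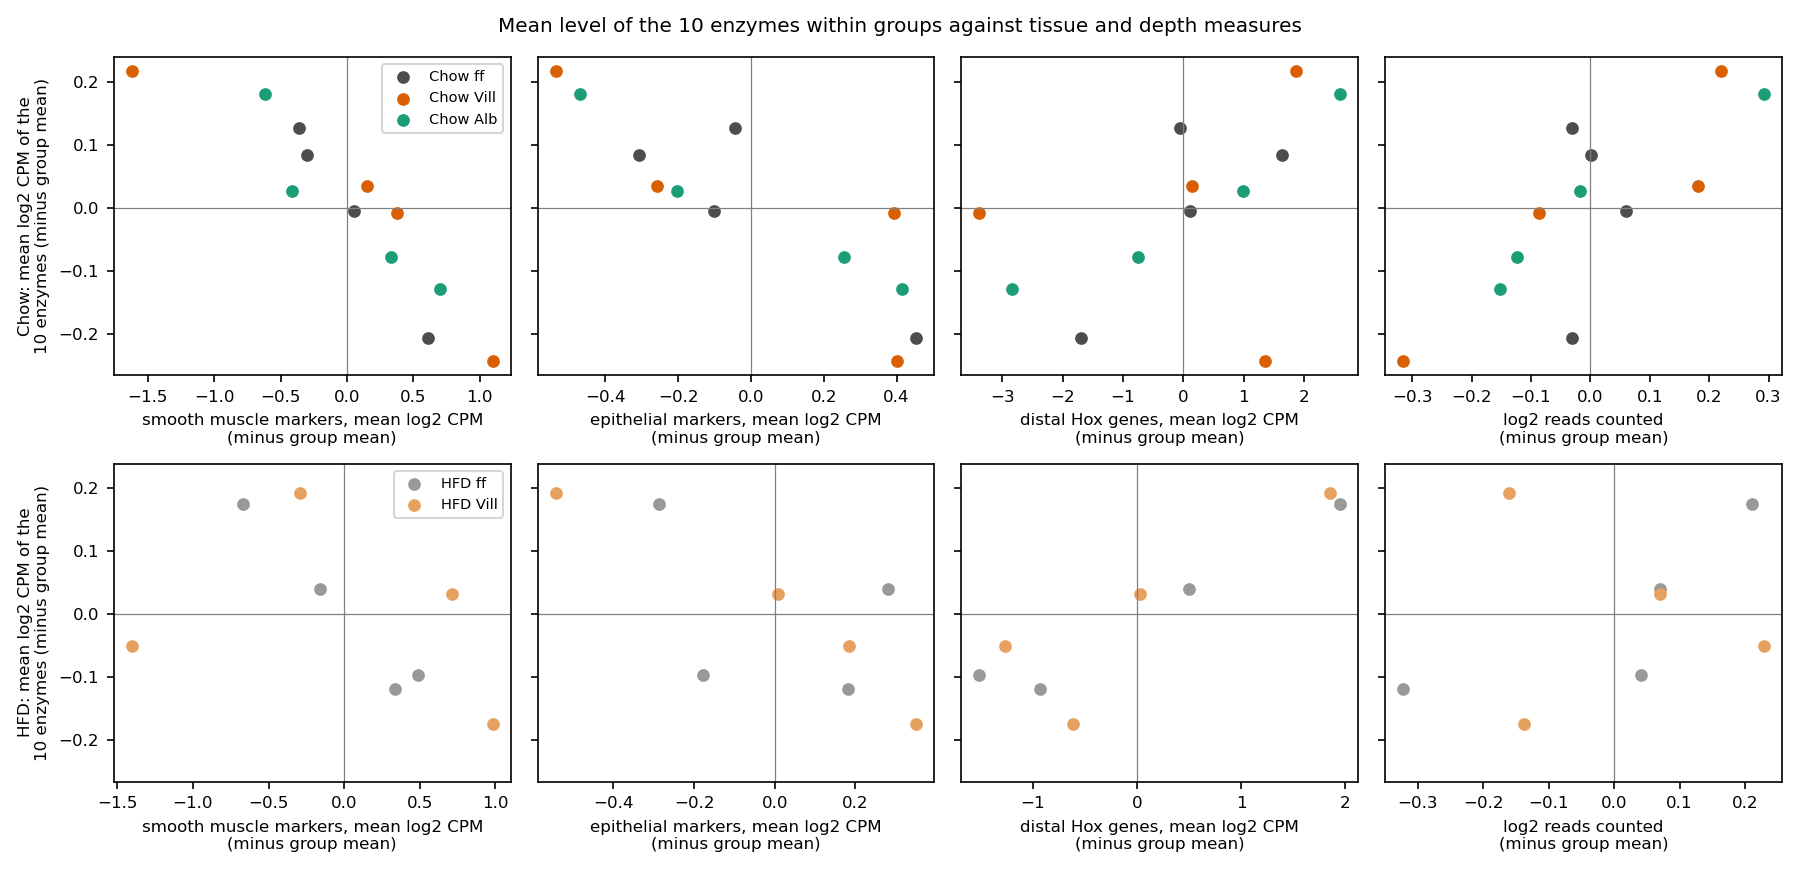
Mean log2 CPM of the 10 enzymes (vertical axis) against smooth muscle markers, epithelial markers, distal Hox genes and log2 reads counted (horizontal axes), all minus group means; top row 12 chow libraries, bottom row 8 HFD libraries, colours are groups. On chow the points fall along smooth muscle (r = -0.92) and epithelium (r = -0.88). On HFD r was 0.91 with distal Hox (0.65 without the 2 farthest libraries) and -0.74 with epithelium. Neither HFD relation passed the adjustment (exact permutation, adjusted p = 0.0565 and p = 0.149).

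Genes outside the list were ranked by how closely they followed the mean of the 10 members over the 12 chow libraries, among 11927 genes at 5 CPM or more. The closest were Pofut1 (r = 0.981, and 0.61 on HFD), Klhl12 (0.981 and 0.37), Bclaf1 (0.98 and 0.93), Pes1 (0.976 and 0.17) and Ice2 (0.975 and 0.62). Pccb, the partner subunit of Pcca, ranked 14 with r = 0.97 on chow and 0.89 on HFD. Pcca itself ranked 6218 with r = 0.07 on chow and 0.55 on HFD. Both values of Pcca include the Vill libraries, in which Villin-Cre removes it from the epithelium, and r without them was not examined. Mccc1 and Pccb, subunits of different biotin-dependent carboxylases, had r = 0.85 on chow (rho 0.86, exact permutation p = 0.00376 and p = 0.00354, adjusted p = 0.0179, 0.77 without the 2 farthest). On HFD they had r = 0.58 (exact permutation adjusted p = 0.167).

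A wider set of 45 genes of the pathway, its transport, control and cofactors, gave no call by edgeR in any of the 6 comparisons. At most 0.00564% of tested genes were called. In chow Vill against ff, 32 of 45 had a higher mean in Vill (50.8% of tested genes), with a median of 0.0657. Pcca was the 1 gene with an unadjusted p under 0.05 (1.9% of tested genes). Next by p were Suclg1, a succinyl-CoA synthetase subunit (0.19), and Lipt2, a lipoyl transferase (0.38), all with edgeR adjusted p = 1. In chow Alb against ff, 21 of 45 were higher (50.1% of tested genes) and 3 had an unadjusted p under 0.05 (4.4% of tested genes). The smallest p-values were those of Slc7a8, an amino acid transporter (0.51), Lias, lipoic acid synthetase (0.29), and Btd, biotinidase (-0.26), each with edgeR adjusted p = 0.99. In Vill against Alb, 33 of 45 were higher in Vill (52.8% of tested genes), and 3 had an unadjusted p under 0.05 (8.87% of tested genes). They were Pcca at -0.60 (edgeR adjusted p = 0.46), Suclg1 at 0.24 (edgeR adjusted p = 0.551) and Acad8, the valine arm's acyl-CoA dehydrogenase, at 0.21 (edgeR adjusted p = 0.562).

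On HFD, 43 of the 45 passed the filter and 22 were higher in Vill (49.3% of tested genes). An unadjusted p under 0.05 was found for 2 (3.45% of tested genes). Slc19a2, a thiamine transporter, was at 17.1, 17.2, 14.1 and 17.6 CPM in Vill and at 13.2, 12.8, 12.1 and 13.1 CPM in ff, a difference of 0.35 (edgeR adjusted p = 0.932). Btd was at 8.46, 8.10, 9.57 and 7.72 CPM in Vill and at 10.8, 10.3, 12.4 and 9.77 CPM in ff, a difference of -0.37 (edgeR adjusted p = 0.932). In both genes the HFD groups did not overlap (2.13% of tested genes did not overlap). Ppara, a receptor that controls fatty acid oxidation genes, was at 44.5, 6.96, 60.8 and 9.11 CPM in ff and at 14.9, 9.94, 12.1 and 8.04 CPM in Vill, a difference of -1.46 (edgeR adjusted p = 0.932). It rested on ff 1 and ff 3, which are high in small intestine genes: the other ff libraries lay below or within the Vill range. Averaged over diets, 28 of 45 were higher in Vill (50.4% of tested genes) and 4 had an unadjusted p under 0.05 (3.6% of tested genes). Pcca led at -0.51, followed by Btd at -0.28 (edgeR adjusted p = 0.962) and Ppm1k, the phosphatase that activates the dehydrogenase complex, at -0.26 (edgeR adjusted p = 0.962). The other was Slc19a2 at 0.19 (edgeR adjusted p = 0.962), named outside the rule after its values were seen. In the diet difference 2 had an unadjusted p under 0.05 (2.54% of tested genes). The smallest p-values were those of Hlcs, which attaches biotin to carboxylases (-0.38), Slc19a2 (0.34) and Auh of the leucine arm (-0.37), each with edgeR adjusted p = 1.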

How the data were processed

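Whole colon RNA was measured in 20 libraries, 5 groups of 4. The values used are the authors' raw counts of reads for each gene, per the file headers; 28 other per-sample columns were left out. Alignment tools in the submitters' processing notes are HISAT2 (2.0.5) to the mm39 genome, with featureCounts (1.5.0-p3) also listed and, for statistics, edgeR (3.22.5) beside DESeq2 (1.20.0). The annotation and strand setting are not given in the sources used here. The authors' deposited log2 fold changes and p-values were read only as a check: for the 10 members in 4 comparisons, 37 of 40 signs were the same and values differed by at most 0.017.

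Counts were tested with edgeR 4.0.16 (TMM, filterByExpr, quasi-likelihood F test, Benjamini-Hochberg over all tested genes, call at adjusted p under 0.05) in R 4.3.3, using all 12 chow libraries, the 8 HFD libraries or the 16 ff and Vill libraries. The scripts were tested on simulated counts. Levels are CPM on 1 TMM scale over the 31184 shared genes; TPM used the tables' gene lengths, and log CPM a prior count of 2. Correlations used log2 CPM minus group means and all 13824 (chow) or 576 (HFD) permutations within groups. For r without the 2 farthest libraries, the group means of all libraries were kept. Without the libraries high in small intestine genes, group means were taken anew. Alternatives were DESeq2 1.42.0, limma-voom (limma 3.58.1), other scaling, filters, blocks, covariates and left-out libraries. Named were all members, Pcca, Pccb, called genes or the 3 smallest p-values of the pathway lists, and the 5 genes of closest pattern. Members and lists were chosen with earlier results of these data known. Fits with smooth muscle, distal Hox or depth as a covariate, and those without chow ff 2, Vill 1 and Alb 3, were added after seeing the data.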

Additional observations from a re-analysis of the deposited data

Results flagged for a closer look

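Over the 10 members with Pcca and Pccb, 60 groups of 4 libraries were examined, and 5 held a library that stood far from the other 3 by Dixon's criterion, which chance alone meets in about 5% of groups. Bcat2 was at 53.2 CPM in chow Vill 1, where the other 3 libraries lay between 42.4 and 43.1 CPM. Bckdha was at 18.9 CPM in HFD Vill 3, against 10.2 to 11.5 CPM, and Mccc1 was at 45.0 CPM in the same library, against 32.25 to 33.15 CPM. Dbt was at 27.9 CPM in chow ff 2, against 36.0 to 37.6 CPM, and Hibadh was at 73.0 CPM there, against 81.8 to 83.4 CPM. Chow ff 2 and chow Vill 1 are among the 5 libraries high in small intestine genes, and HFD Vill 3 had the highest distal Hox level on HFD; the part of these measures in the values was not tested.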

How the results depend on the processing

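No member was called in any of the 6 comparisons under any alternative run; the smallest adjusted p of a member was 0.197 (chow Vill against Alb, epithelial covariate), and the smallest unadjusted p was 0.00341 (chow Alb against ff, depth covariate). The cause was not tested where none is named. Bcat2, Bckdha and Aldh6a1 overlap genes on the other strand, and Bckdha and Bckdhb rest on 117 to 484 reads per library, the fewest of the members. Per length rather than per read, Hibadh was 11.3% of the members' sum in chow ff.

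Whole-table calls, 1 in most comparisons, moved as follows. DESeq2 gave 3 in chow Vill against ff, 11 in Alb against ff, 90 in Vill against Alb, 2 on HFD and 5 averaged over diets. No filter gave 2 in chow Vill against ff, which then tests more genes. Without chow ff 2, Vill 1 and Alb 3 there were 0 in chow Vill against ff; without HFD ff 1 and 3 there were 2 on HFD and 3 averaged. Averaged over diets, limma-voom and the epithelial covariate each gave 2. The deviations of same-numbered libraries had r from -0.57 to 0.47, which does not settle whether the numbers pair the libraries. With the replicate number as a block, 0 genes were called in chow Vill against ff and 0 in Vill against Alb. In Alb against ff, Bckdhb was then at 0.02 and Hibch at 0.

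In chow Alb against ff these members changed sign. Bckdhb, Dbt and Hibadh were at 0.01, 0 and 0 with RLE scaling and at 0, 0 and 0 with DESeq2 and with only the 2 groups fitted. With the depth covariate they were at 0.07, 0.14 and 0.07, and with smooth muscle at 0.09, 0.07 and 0.03. Bckdhb was at 0.02 with limma-voom and 0.01 with distal Hox, and Hibch at -0.03 with the epithelial covariate. Without chow ff 2, Vill 1 and Alb 3, Hibch was at -0.02 and Hibadh at 0.01.

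With the smooth muscle covariate, chow Vill against ff was -0.05 for Bckdha, -0.10 for Bckdhb, -0.04 for Dbt and -0.11 for Aldh6a1. Vill against Alb was then -0.18 for Bckdhb, -0.12 for Dbt, -0.03 for Hibch, -0.06 for Mccc1 and -0.13 for Mccc2, with a member median of -0.12. The diet difference was then 0.12 for Bckdha, 0.02 for Hibadh, 0.01 for Hibch and 0.03 for each of Mccc1 and Mccc2. Without chow ff 2, Vill 1 and Alb 3, chow Vill against ff was -0.18 for Bcat2 and -0.05 for Bckdhb. With the depth covariate, Vill against Alb was -0.01 for Bckdhb and Dbt, and the diet difference 0.01 for Bckdha.

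On HFD the distal Hox covariate gave 0.12 for Bcat2, -0.11 for Bckdha and Dbt, -0.08 for Hibch, -0.03 for Ivd and 0 for Mccc1, and 0.06 for Bcat2 in the diet difference. Without HFD ff 1 and 3 the HFD values were 0.05 for Bcat2, -0.14 for Dbt and -0.09 for Hibch, the average 0.02 for Aldh6a1, and the diet difference 0.04 for Bcat2 and -0.04 for Pcca. The epithelial covariate gave an average of 0 for Bcat2 and 0.01 for Bckdhb, and a diet difference of 0.08 for Bckdha, 0.02 for Hibadh, 0.02 for Mccc1 and 0.01 for Mccc2. Averaged, Bckdhb was at 0.01 with limma-voom and Bcat2 at 0 with the stricter filter.

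Leaving out 1 library at a time gave these ranges where the sign changed. In chow Vill against ff: Bcat2 -0.09 to 0.15, Bckdhb -0.07 to 0.18, Aldh6a1 -0.05 to 0.18. In Alb against ff: the member median -0.02 to 0.13, Dbt -0.11 to 0.06, Hibadh -0.09 to 0.05, Mccc2 -0.01 to 0.15, Hibch -0.14 to 0.16, Bckdhb -0.13 to 0.12, Pcca -0.22 to 0.02. In Vill against Alb: Bckdhb -0.05 to 0.14, Bckdha -0.18 to 0.08, Ivd -0.09 to 0.01. On HFD: Bcat2 -0.09 to 0.08, Dbt -0.04 to 0.14, Bckdha -0.11 to 0.28, Ivd -0.02 to 0.10, Hibch -0.01 to 0.24. In the diet difference: Mccc1 -0.18 to 0.03, Bcat2 -0.17 to 0.08, Bckdha -0.28 to 0.11, Mccc2 -0.15 to 0.05, Hibadh -0.11 to 0.07, Hibch -0.18 to 0.05. Averaged over diets: Bcat2 -0.04 to 0.07, Bckdhb -0.10 to 0.02, Aldh6a1 -0.11 to 0. The HFD values of Bckdha, Hibch and Ivd turned negative without HFD Vill 3, and the HFD member median was then -0.01. Without chow Vill 3 the chow Vill against ff median was 0.07 and Aldh6a1 turned negative.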
